A study of Orestias ascotanensis with 42 samples.

Results

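The 100 genes described here had higher poly-A RNA in summer than in winter in the gills, the skin and the muscle of the Andean killifish Orestias ascotanensis. They were chosen by these measured season differences, which are therefore a description and not a test. From the 21024 genes of the deposited count table, the choice first kept 8067 genes of moderate and similar level: a mean of 5 to 200 CPM (a gene's count scaled by the size of its library) in each tissue and a largest tissue mean under 4 times the smallest. The scaling was TMM, which evens out differences in library composition, over all 42 libraries. In each tissue the difference between the 7 summer and the 7 winter libraries in log2(CPM + 1) was divided by its standard error with unequal variances (t), and genes were ranked by the smallest of their 3 values. The first 100 are the genes of this account. All 100 also passed the filter on low counts in every test below. The table gives identifiers that it does not pair with gene names, so the function of these genes is not stated, and most are referred to by their place in the ranking.

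The fish were wild and came from the Ascotán salt pan, at 3740 m. A set of 7 was netted in the southern winter (July 2019) and another 7 in the southern summer (January 2020). Each fish gave 1 library of gills, 1 of skin and 1 of muscle, in 6 groups of 7, with no treatment in the field. The groups within a tissue differ by season, year and collection, and these cannot be told apart. In such bulk samples, more cells of one type and more RNA per cell cannot be told apart either. The labels give no age, sex or strain for any fish.

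Gills exchange gases and salts with the water, skin is the barrier to it, and skeletal muscle is the bulk of the body and its main store of protein. Fish take the temperature of their water, and wild fish are known to shift the RNA levels of many genes between seasons as temperature, food, breeding and water chemistry change. Genes for protein folding and RNA processing are known to answer to cold in several tissues of a fish, but the files do not say whether any of the 100 genes is of such a class.

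Total counts ran from 28009075 to 154396513 per library, apart from muscle summer 4 with 6074371. No library held fewer than 13 counts of any of the 100 genes, and the gene with the fewest had 20858 counts over all libraries. Skin summer 3, skin summer 4 and muscle summer 4 stood apart from their tissue: their median correlation with its other libraries was 0.866, 0.84 and 0.79, while every other library was at 0.899 or above. Libraries of a group were also compared by the spread of their log2 count ratios (the median absolute deviation, MAD), and 12 of the 126 pairs within groups lay under 0.15. The largest such set was 3, 5, 6 and 7 of summer muscle, another was 2, 6 and 7 of winter skin, and gills had pairs: 2 with 7 and 3 with 6 in winter, and 4 with 7 in summer. Gills summer 1 was also under 0.15 with gills winter 2 and 7, at 0.139 and 0.14. The gill pairs within a season were closer, at 0.0746, 0.0767 and 0.0972. In 4 libraries (gills winter 7, gills summer 1, skin summer 7 and muscle winter 4) the season tag contradicts the title, which was followed. Whether libraries of a set are separate samples is not settled by these values.

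**Figure D1:**
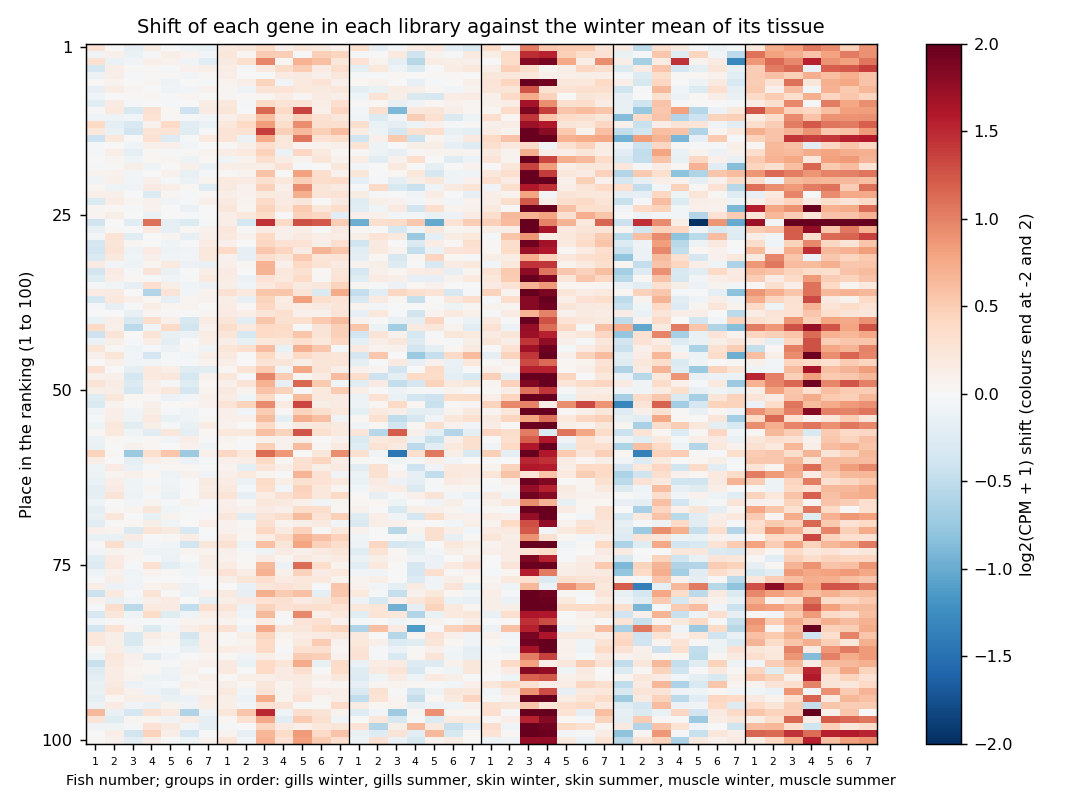
Shift of each of the 100 genes (rows, in order of rank) in each of the 42 libraries (columns, by group and fish number) as log2(CPM + 1) against the winter mean of the tissue, red for higher and blue for lower. The summer blocks are red in each tissue, the strongest colours are in skin summer 3 and skin summer 4, and muscle winter 3 is the reddest winter column.

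Of the 8067 genes, 1288 (16%) had a positive t in all 3 tissues and 2640 (32.7%) a negative one. Taken by tissue, 45.6% were higher in summer in gills, 38.4% in skin and 38.8% in muscle. Without the 3 libraries that stand apart it was 44.9% in skin and 43.5% in muscle. Such shares also depend on the scaling: the median difference in muscle was -0.11 with TMM and 0.04 with library totals. The smallest t of the 100 genes was 2.88 for the first and 1.5932 for the last. The gene at place 100 had a gill t of 3.3275, a skin t of 1.5932 and a muscle t of 3.1978. The first gene left out, at place 101, had 1.5928, 1.6958 and 3.148, so the values on both sides of the limit are close. Genes that met the same limit in the opposite direction, lower in summer in every tissue, numbered 315. Skin gave the smallest of the 3 values for 58 of the 100 genes, gills for 30 and muscle for 12.

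The size of the difference was not alike in the 3 tissues. The median summer minus winter difference of the 100 genes was 0.22 on the log2(CPM + 1) scale in gills (a fold of 1.17), 0.59 in skin (1.5) and 0.56 in muscle (1.48). The medians over the 8067 genes were -0.02, -0.12 and -0.11. The 100 genes therefore lay 0.24, 0.7 and 0.67 above genes of like level. That distance was 0.24, 0.7 and 0.67 with RLE scaling, and 0.24, 0.72 and 0.62 with library totals alone. Scaling moves the genes of a library by nearly the same amount, so the distance could hardly change and is no check on the choice. With library totals alone, 27 of the 100 genes stayed in the first 100. With library totals the median of the 8067 genes in skin was -0.33, and 97 of the 100 genes were higher in summer skin in place of 100. The largest difference was in muscle for 57 genes, in skin for 43 and in gills for 0. Without the 3 libraries that stand apart it was in muscle for 93, in skin for 3 and in gills for 4. For these counts the share of genes of like level is not given. The differences of the 8067 genes also spread least in gills, with quartiles of -0.1 and 0.08. For skin the quartiles were -0.34 and 0.17, and for muscle -0.37 and 0.16. Without the 3 libraries they were -0.12 and 0.1 for skin, and -0.3 and 0.19 for muscle. The ranking by t asks for larger differences where the standard error is larger. Nothing is read from the order of the tissues about the 100 genes.

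**Figure D2:**
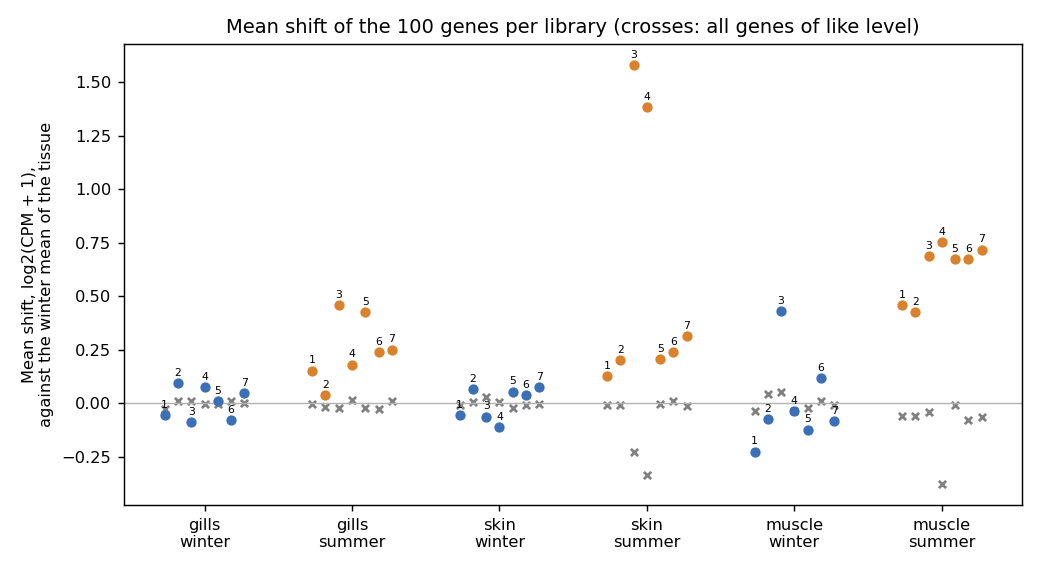
Mean over the 100 genes of the shift in log2(CPM + 1) against the winter mean of the tissue (points, blue for winter and orange for summer, numbered by fish), beside the mean over the 8067 genes of like level (crosses), for each library in 6 groups of 7. Skin summer 3 and 4 sit at 1.58 and 1.382, and the other 5 summer skin libraries between 0.127 and 0.314.

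OAV3G000004429 was first in the ranking. In winter gills its lowest, median and highest levels over the 7 libraries were 4.33, 4.92 and 6.28 CPM, and in summer gills 5.32, 5.86 and 6.73. In skin they were 4.17, 5.26 and 6.95 CPM in winter and 5.59, 8.04 and 11.9 in summer, with skin summer 3 the highest. In muscle they were 6.48, 9.47 and 12.3 CPM in winter and 11.4, 17.9 and 21.2 in summer. The seasons overlapped in each tissue, in muscle only through muscle summer 1, at 11.4 CPM, and muscle winter 3, at 12.3. The mean went from 5.0 ± 0.677 CPM (SD, n = 7) in winter to 5.87 ± 0.461 in summer for gills, from 5.42 ± 1.03 to 7.94 ± 1.98 for skin and from 9.79 ± 1.9 to 17.0 ± 3.41 for muscle. On the log2 scale these are differences of 0.2, 0.47 and 0.74, or of 0.34 in skin and 0.68 in muscle without the libraries that stand apart.

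OAV3G000016840 was second. Its gill levels were 5.38, 5.89 and 6.54 CPM (lowest, median, highest) in winter and 6.02, 8.4 and 8.95 in summer. Its skin levels were 4.73, 6.55 and 7.6 CPM in winter and 7.22, 8.85 and 21.0 in summer, the last in skin summer 4. Its muscle levels were 3.17, 4.81 and 7.76 CPM in winter and 7.98, 9.53 and 11.7 in summer. The muscle groups did not overlap, by a margin of 7.76 to 7.98 CPM between muscle winter 3 and muscle summer 4, while gills and skin overlapped at their edges. The log2 differences were 0.31 in gills, 0.66 in skin and 0.85 in muscle, and 0.32 in skin without skin summer 3 and 4.

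**Figure D3:**
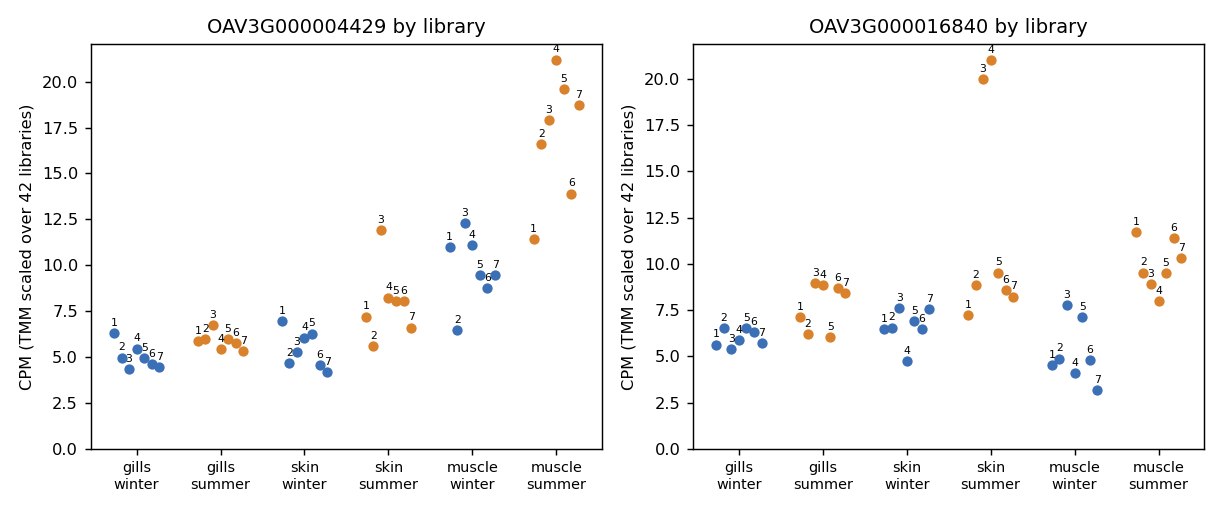
Level in CPM (vertical axis, from 0) of the 2 genes ranked first and second in each library of the 6 groups, winter in blue and summer in orange, numbered by fish. The muscle groups of OAV3G000016840 do not overlap (highest winter 7.76, lowest summer 7.98), and its skin summer 3 and 4 stand above the other summer libraries.

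With all libraries, gills held the smallest differences, and those of genes of like level also spread least there. Without skin summer 3 and 4 the medians of gills and skin were close, at 0.22 and 0.2. In gills all 100 genes lay between 0.06 and 0.66 on the log2 scale, with the middle 50 between 0.17 and 0.31. A difference of 0.5 was reached by 4, against 0.186% of genes of like level. All 7 summer libraries were above all 7 winter libraries for 5 of the 100 genes, against 0.285% of the 8067 genes of like level. No gene of the 100 passed an adjusted p of 0.05 in edgeR's quasi-likelihood test. Of the 18409 genes tested, 0% passed as higher in summer, and of genes of like level 0% passed in either direction. An unadjusted p under 0.05 in the direction of summer was found for 62 of the 100 against 6.08% of all genes tested, and DESeq2 called 13 against 0.915%. The choice used this contrast, so nothing is read from these counts.

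The largest gill differences were in OAV3G000007441 and OAV3G000009604. OAV3G000007441, at place 26, had 7.81, 9.1 and 23.9 CPM (lowest, median, highest) in winter gills and 8.15, 15.3 and 31.0 in summer gills, a log2 difference of 0.66. Its groups overlapped widely, with gills winter 4 at 23.9 CPM above 4 of the 7 summer libraries. OAV3G000009604, at place 13, had 5.03, 6.65 and 8.43 CPM in winter and 8.43, 9.8 and 19.2 in summer, a log2 difference of 0.59. All 7 summer libraries were above all 7 winter ones, though both edges round to 8.43 CPM, and gills summer 3 held the highest level.

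Gills summer 3 and gills summer 5 were the 2 highest libraries of their group for 47 of the 100 genes, and for 8.49% of the genes of like level. The choice used these libraries and favoured genes lifted in summer, so nothing is read from that contrast. Their mean shift was 0.458 and 0.425, against 0.039 to 0.25 in the other 5 summer gills. Gills summer 2, at 0.039, lay within the winter range of -0.089 to 0.093. Gills summer 1, which is close to 2 winter libraries and carries a winter tag, was at 0.152, above every winter library. In it 98 of the 100 genes were over the winter mean, against 49.4% of genes of like level. The choice counted it as a summer library, so nothing is read from these values about its season. Muscle-enriched genes, defined as at least 4 times higher in muscle than in both other tissues, took 1.54% and 1.72% of the counts of gills summer 3 and 5, and 0.818% to 1.49% in the other summer gills. In winter gills they took 0.72% to 2.23%. The part of tissue make-up in the gill differences was not tested.

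In skin most of the difference came with 2 libraries. Skin summer 3 and skin summer 4 were the 2 highest summer libraries for 81 of the 100 genes, against 31.2% of the 8067 genes of like level. The median gene of the 100 was 1.64 above the winter mean in skin summer 3 and 1.54 above it in skin summer 4 on the log2 scale, folds of 3.11 and 2.91. In the same libraries the median gene of the 8067 was 0.3 and 0.37 below it (-0.3 and -0.37). In skin summer 3 all 100 genes were over the winter mean, and in skin summer 4 it was 94, against 40.6% and 39.9% of genes of like level. The choice used these 2 libraries and favoured genes lifted in them, so the values are a description.

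Without these 2 libraries the median skin difference of the 100 genes was 0.2 in place of 0.59, a fold of 1.15. All 100 genes were higher in summer, by 0.03 to 0.91, where 44.9% of genes of like level were. The other 5 summer skin libraries had a mean shift of 0.127 to 0.314, each above the highest winter library at 0.076. The smallest t of the last gene in the ranking, 1.5932, was reached in skin by 54 of the 100 without the 2 libraries, against 14.2% of genes of like level. A skin difference of at least 0.5 was held by 67 genes with all libraries, against 5.45%, and by 5 without the 2, against 0.707%. The choice used the remaining skin libraries too, so an excess over genes of like level was favoured in advance. Nothing is read from it.

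**Figure D4:**
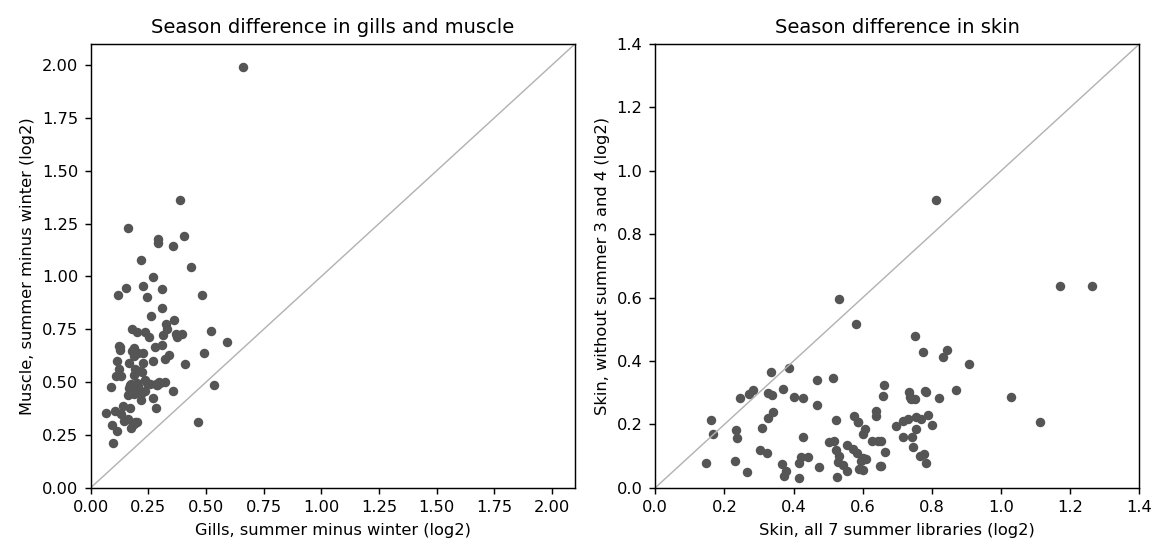
Summer minus winter difference in log2(CPM + 1) for each of the 100 genes, in muscle against gills (left) and in skin without skin summer 3 and 4 against skin with all libraries (right), with the line of equal values. Muscle exceeds gills for nearly every gene, and most skin points fall below the line, from a median of 0.59 to one of 0.2.

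Values that go with these 2 skin libraries are the following. They had 47253187 and 31616447 counts, against 44964568 in skin summer 5, whose mean shift was 0.206. No count was found for 9.51% and 10.2% of the genes, against 4.9% to 7.63% in the other 12 skin libraries. Muscle-enriched genes took 39.4% of the counts of skin summer 3, the highest share of any skin library, but 16.1% of those of skin summer 4, the second lowest. Gill-enriched genes took 0.186% and 1.01%, the lowest and the highest share of any skin library. The 10 most abundant genes took 28.1% and 11.9%, against 11.7% to 20.4% in the other 12 skin libraries. The TMM factor was 0.678 and 1.07, against 1.12 to 1.36 in the other 12. A lower factor raises the scaled level of every gene of the library, so part of the shift of skin summer 3 comes with the scaling. RNA quality and the part of these features in the shift were not tested.

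The largest skin differences were in OAV3G000003729 and OAV3G000007441. OAV3G000003729, at place 14, had 22, 31.0 and 43.4 CPM (lowest, median, highest) in winter skin and 39.6, 50.8 and 271 in summer skin, a log2 difference of 1.26, or 0.64 without skin summer 3 and 4. OAV3G000007441 had 6.93, 19.1 and 22.5 CPM in winter skin and 17.8, 24.9 and 263 in summer skin. The highest value was again skin summer 3, and the next was skin summer 7 at 35.3 CPM. Its log2 difference was 1.17 with all libraries and 0.64 without the 2. The seasons of OAV3G000003729 overlapped only between skin summer 1, at 39.6 CPM, and the highest winter library. Those of OAV3G000007441 overlapped further, with skin summer 6, at 17.8 CPM, below the winter median. The gene at place 52 had the largest difference without the 2 libraries, 0.91.

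All 7 summer skin libraries were above all 7 winter ones for 10 of the 100 genes and for 0.359% of genes of like level. In edgeR none of the 100 passed an adjusted p of 0.05. Of the 18260 genes tested, 0% passed as higher in summer, and of genes of like level 0% passed in either direction. An unadjusted p under 0.05 in the direction of summer was found for 82 of the 100, against 9.21% of all genes tested. DESeq2 gave an adjusted p to 1 of the 100 only and called 0, against 8.32% of the 913 genes to which it gave one. Without skin summer 3 and 4 edgeR called 0, against 0.0108% of all genes in the same fit, with 28 at an unadjusted p under 0.05, against 5.47%. DESeq2 then called 11 of 100, against 1.42%. The choice used this contrast too.

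OAV3G000015181, at place 5 and singled out after its values were seen, was the only one of the 100 whose seasons did not overlap in 2 tissues. It was also the only one of the 8067 genes of like level (0.0124%). The choice by t favours such a gene. In skin it had 43.8, 44.9 and 46.5 CPM in winter and 48.5, 50 and 53.2 in summer. In muscle it had 23.2, 28.3 and 35.9 CPM in winter and 39.3, 42.6 and 47.0 in summer. Its differences were small, 0.12 in gills, 0.17 in skin and 0.6 in muscle, and its skin value was 0.17 with and without skin summer 3 and 4.

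In muscle the shift was seen in all 7 summer libraries, of which 3, 5, 6 and 7 are a near-identical set. The choice used the muscle libraries of both seasons and favoured genes lifted in summer, so the values are a description. The mean shift of summer muscle ran from 0.424 to 0.754, and that of winter muscle from -0.227 to 0.117 in 6 libraries. Muscle winter 3, at 0.431, lay within the summer range. It was the highest winter library for 63 of the 100 genes, against 25.4% of genes of like level. It held 64437069 counts, and muscle-enriched genes took 67.1% of them, within the 60.8% to 73.4% of winter muscle. Muscle summer 4, the shallow library, had the highest mean shift at 0.754, while the mean over genes of like level was -0.38. Without it the median difference of the 100 genes was 0.54 in place of 0.56, and 60 in place of 58 genes reached 0.5. Of genes of like level, 7.25% in place of 6.59% did.

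OAV3G000007441 and OAV3G000018818 had the largest muscle differences. OAV3G000007441 was at 4.3, 22.1 and 56.9 CPM (lowest, median, highest) in winter muscle and at 19.2, 107 and 141 in summer muscle, a log2 difference of 1.99 and a fold of 3.98. Muscle summer 2, at 19.2 CPM, fell among the winter libraries, and the other 6 summer libraries were above all of them. OAV3G000018818, at place 99, had 10.9, 20.5 and 36.5 CPM in winter and 43.9, 55.4 and 60.8 in summer, with no overlap and a log2 difference of 1.36. In skin the same gene was at 165 CPM in skin summer 3, and its difference there was 0.78 with all libraries and 0.08 without the 2 that stand apart.

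In muscle 38 of the 100 genes passed an adjusted p of 0.05 in edgeR as higher in summer, against 2.36% of all genes tested, and 55 in DESeq2, against 5.17%. An unadjusted p under 0.05 was found for 84, against 10.3%. The groups did not overlap for 16, against 0.806% of genes of like level. These counts come from a contrast that the choice used. The near-identical muscle summer 3, 5, 6 and 7 had mean shifts of 0.687, 0.672, 0.672 and 0.717. With that set averaged to 1 sample, which leaves 4 summer samples, edgeR called 0 of the 100 and 0% of all genes as higher in summer. An unadjusted p under 0.05 in that direction was then found for 53 of the 100, against 7.53%. DESeq2 called 17, against 1.26%. The median log2 difference was 0.54 there, and all 100 genes were higher in summer. Leaving out 1 library at a time, edgeR called from 14 genes (without muscle summer 6) to 49 (without muscle winter 3). It called 16, 15 and 16 without muscle summer 3, 5 and 7, and 20, 18 and 22 without muscle winter 2, 6 and 7. The share of all genes called without 1 library is not given, so nothing is read from these moves about the 100 genes.

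The order of the fish by mean shift was alike across tissues for some fish and not for others. Summer fish 3 had the highest mean shift in gills and in skin and the third highest in muscle. Summer fish 1 and 2 held the sixth and the seventh place in gills, the seventh and the sixth in skin, and the sixth and the seventh in muscle. Summer fish 4 was the first in muscle and the second in skin but the fifth in gills, and summer fish 5 was the second in gills but the fifth in skin. Winter fish 3 had the highest mean shift of winter muscle but the lowest of winter gills, at -0.089, and the second lowest of winter skin, at -0.063. Over the 14 fish, with the group means removed, the median correlation of a gene's deviations between gills and skin was 0.22 for the 100 genes and 0.19 for genes of like level. Between gills and muscle it was 0.12 and 0.12, and between skin and muscle 0.17 and 0.24. Over the 12 fish without a library that stands apart the 3 medians were 0.16, 0.14 and 0.14 for the 100 genes and 0.28, 0.18 and 0.23 for genes of like level. The tissues of a fish were collected together and share whatever the collection brought.

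The variation from fish to fish within a group is given as values only. The choice of the genes used every library, so genes lifted by the same summer libraries were favoured, and removing the group means does not undo that. With the group means removed, the median correlation between a pair of the 100 genes was 0.35 over the 14 gill libraries. In skin it was 0.76, and 0.12 without skin summer 3 and 4. In muscle it was 0.23, and 0.3 without muscle summer 4. The points of each correlation share their library, its depth and its scaling, and some libraries are near-identical. Nothing is read from these values about the genes.

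Levels were also compared between tissues, averaged over the seasons, in 1 edgeR fit of all 42 libraries. That fit left out the pairing of tissues by fish and counted each near-identical library as a separate sample. The ranking did not use this contrast itself, but the level limits kept tissue means within a factor of 4. The contrast is not independent of the choice either. The choice favoured genes lifted in the summer libraries, and those that stand apart enter the tissue means. The counts, folds and p-values below carry this, above all those that involve skin. In gills against skin 19 were higher in gills, 30 higher in skin and 51 did not pass, against 26.6% and 27.7% of genes of like level and 29.7% and 33.9% of all genes tested. In gills against muscle 27 were higher in gills, 41 higher in muscle and 32 did not pass, against 43.4% and 32.3% of genes of like level and 43.3% and 37.9% of all. In skin against muscle 27 were higher in skin, 32 higher in muscle and 41 did not pass, against 38.2% and 26.2% of genes of like level and 38.1% and 32.9% of all. All 3 pairs differed for 26 genes, against 28.4% of genes of like level, and none passed for 19, against 12%.

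These counts moved when the 3 libraries that stand apart, skin summer 3, skin summer 4 and muscle summer 4, were left out together. Then 42 genes were higher in gills and 17 higher in skin, and in skin against muscle 18 were higher in skin and 62 higher in muscle. The median gills minus skin fold of the 100 genes was -0.13 on the log2 scale with all libraries and 0.13 without the 3. The shares of genes of like level were then 29.8% and 30.1% for gills against skin, and 39.6% and 35% for skin against muscle.

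**Figure D5:**
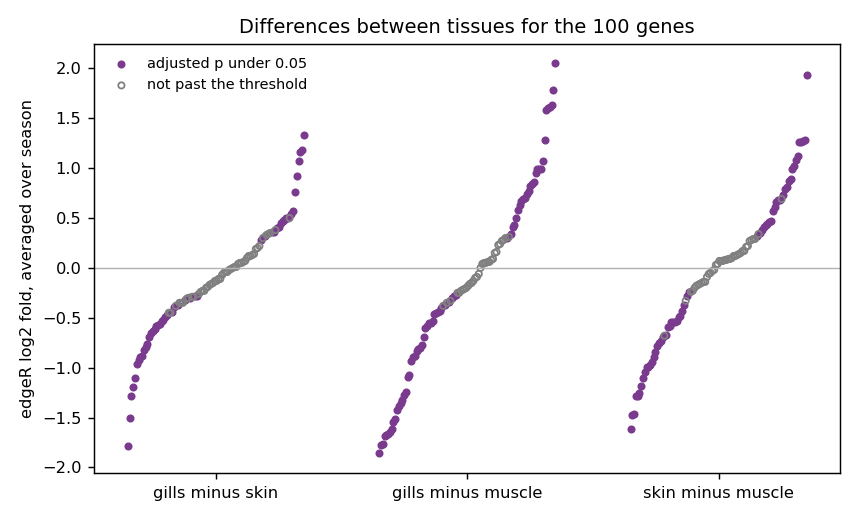
edgeR log2 fold between tissues, averaged over season, for each of the 100 genes in order of size within each pair of tissues; filled points passed an adjusted p of 0.05 and open ones did not. Folds run to both sides of 0 in each pair, from 41 genes higher in muscle than gills to 19 higher in gills than skin.

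Between gills and skin, OAV3G000014025 had the largest fold in favour of gills, at 13.2 ± 2.67 CPM (SD, n = 14) against 5.42 ± 3.34 in skin (log2 fold 1.33 ± 0.21 SE, edgeR adjusted p = 6.98e-07). OAV3G000006482 followed with 10.8 ± 0.934 against 5.14 ± 4.56 CPM (1.18 ± 0.2, edgeR adjusted p = 1.97e-06). The second gene was at 18.7 CPM in skin summer 3 and 12.1 in skin summer 4, above the other 12 skin libraries, and without the libraries that stand apart its fold was 1.62. In the other direction, OAV3G000012078 averaged 27 ± 3.63 CPM in gills and 99.4 ± 81.4 in skin (-1.79 ± 0.17, edgeR adjusted p = 4.59e-12). It was at 308 and 271 CPM in skin summer 3 and 4, above the other 12 skin libraries. OAV3G000012019 averaged 7.13 ± 3.25 CPM in gills and 20.5 ± 11.8 in skin (-1.5 ± 0.19, edgeR adjusted p = 8.57e-09). Without the libraries that stand apart the folds of these 2 genes were -1.36 and -1.26. All 4 folds kept their sign and passed with the fish as a block, in DESeq2 and without the libraries that stand apart.

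OAV3G000010177 and OAV3G000015213 had the largest folds of the 100 over muscle, from gills and from skin. OAV3G000010177 had a mean gill level of 41.2 ± 8.6 CPM, with 39.8 ± 33.6 for skin and 10.5 ± 8.1 for muscle (gills minus muscle 2.05 ± 0.26, edgeR adjusted p = 3.15e-09; skin minus muscle 1.93 ± 0.26, 1.9e-08). For OAV3G000015213 the mean was 35.9 ± 5.08 CPM for gills, 29.2 ± 34.7 for skin and 11.5 ± 7.98 for muscle. Its gills minus muscle fold was 1.78 ± 0.25 (edgeR adjusted p = 2.63e-08). Its skin minus muscle fold was 1.28 ± 0.25 (1.63e-05), and 0.68 without the libraries that stand apart.

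OAV3G000009483 and OAV3G000007441 were lowest in gills relative to muscle. OAV3G000009483 averaged 14.6 ± 4.9 CPM in gills and 51.6 ± 12 in muscle (-1.86 ± 0.16, edgeR adjusted p = 1.06e-13). OAV3G000007441 averaged 15.2 ± 8.17 and 60.6 ± 46.3 CPM (-1.78 ± 0.37, edgeR adjusted p = 3.69e-05). In skin relative to muscle the lowest were OAV3G000000619, at 29.9 ± 11.6 against 91.6 ± 31.4 CPM (-1.62 ± 0.14, edgeR adjusted p = 3.59e-13), and OAV3G000006878, at 5.08 ± 1.64 against 14.6 ± 7.7 CPM (-1.47 ± 0.2, edgeR adjusted p = 1.37e-08). Of the genes enriched in gills, skin or muscle, 0 were among the 100. The level limits, set on mean CPM and not on the edgeR fold, leave little room for such genes.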

How the data were processed

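The libraries were poly-A, without strand, per the labels' protocols. The authors deposited raw counts per gene for 21024 genes and 42 libraries. SAMtools 1.10, Cufflinks, HISAT2 2.2.1, Trim Galore 0.6.6 and FastQC appear in the submitters' processing notes with no role. Build, annotation and counter: not given in the sources used here. Of counts from 1 to 10, 75.8% were even. Reads of a gene and of one that overlaps it on either strand cannot be told apart, and genes with near copies are uncertain.

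Groups follow the titles. R 4.3.3 with edgeR 4.0.16 (TMM, filterByExpr, robust quasi-likelihood test, two-sided), limma 3.58.1 and DESeq2 1.42.0 were used, with Benjamini-Hochberg adjustment over all genes tested and a threshold of 0.05. Season was fitted within a tissue, tissues in 1 fit of all libraries. A tissue-enriched gene exceeded both other tissues by at least 2 in log2 CPM. The tests were checked on simulated data. The members, lists and limits for libraries (MAD 0.15, correlation 0.88) were chosen with earlier results of these data known. Named genes are the first 2 of the ranking, the 2 with the largest season difference per tissue and the 2 with the largest fold in each direction per tissue pair. No more than 2 identifiers per direction and comparison are printed, except where said. Gene lists and cell type markers could not be matched to identifiers and were not used. Within a season, a number marks the same fish in each tissue, by the labels, so tissues are paired. The printed tissue p-values come from the fit without that pairing. P-values measure the spread between these libraries, with each near-identical library counted as a separate sample.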

Additional observations from a re-analysis of the deposited data

Results flagged for a closer look

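In groups of 7, a library was singled out where its gap to the next was large against the range of the group. The 15 named genes and the mean shift were checked in 6 groups, 96 in all, and 16 were singled out. For a single group taken without choice, chance gives about 1 in 20. The named genes were chosen for large differences in these libraries, and the checks share libraries. The 16 are therefore not weighed against that rate. None was a mean shift. A rule on the gap to the next library passes over 2 outlying libraries that lie close together. Skin summer 3 and 4, with mean shifts of 1.58 and 1.382, are such a case. In skin summer 3, the value was 11.9 CPM for OAV3G000004429 (next 8.23), 263 for OAV3G000007441 (35.3), 165 for OAV3G000018818 (73.8) and 66.0 for OAV3G000000619 (35.7). Skin summer 4 held 144 CPM of OAV3G000010177 (74.6). Low values in winter skin were 4.73 CPM of OAV3G000016840 in library 4 (next 6.46) and 6.96 of OAV3G000012019 in library 3 (13.3), and a high one was 40 of OAV3G000009483 in library 3 (20). Gills winter 4 was high for OAV3G000007441, at 23.9 CPM (10.7), and for OAV3G000000619, at 33.4 (28.0). Gills summer 3 held 19.2 CPM of OAV3G000009604 (11.2), and gills summer 5 held 29.7 of OAV3G000009483 (18.4). In muscle summer 4 OAV3G000010177 was at 36.1 CPM (12.3) and OAV3G000015213 at 34.6 (20.5). Muscle summer 1 held 21.5 CPM of OAV3G000012019 (15.7), and muscle summer 2 held 29.4 of OAV3G000006878 (20.1).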

How the results depend on the processing

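Of 280 alternative values for 13 results, 258 kept their direction and stayed within 1.5 times (counts) or 1 SD of the median shift between summer libraries (medians). In skin that SD is itself raised by skin summer 3 and 4: without them edgeR's median log2 fold of the 100 genes was 0.18 in place of 0.8. Of the 100 genes, 92 stayed in the first 100 with RLE scaling or limma's moderated t and 100 with a pseudocount of 0.25 CPM. It was 27 with library totals, 52 without the libraries that stand apart, 60 with near-identical libraries averaged, 47 with both (chosen after seeing the data), 60 with the season from the tag and 51 with wide level limits. Without 1 fish it was 55 to 85, lowest without summer fish 4. Genes called higher in gills went from 0 to 13 in DESeq2, against 0.915% of its genes with an adjusted p, and to 0 to 3 without 1 library. Those in skin went from 0 to 38 in 1 fit of all libraries and stayed at 0 without any 1 library. In muscle the 38 became 0 with near-identical libraries averaged, 23 with the season from the tag and 14 to 49 without 1 library. The choice used these season contrasts. For the fit of all libraries, and those by the tag or without 1 library, the share of all genes called is not given. Nothing is read from these counts about the 100 genes. Without the libraries that stand apart, 42 genes were higher in gills than skin and 17 lower, and 62 lower in skin than muscle; the balance of gills against skin thus turned, from 19 and 30, and the median fold went from -0.13 to 0.13. With the fish as a replicate block the 6 tissue counts stayed within 1.5 times, at 23 higher and 28 lower for gills against skin, 28 and 39 for gills against muscle, and 25 and 34 for skin against muscle. In that fit 12570, 15739 and 13688 of the 19258 genes tested passed in either direction for these pairs. With near-identical libraries averaged the counts of the 100 genes were 15 and 20, 23 and 31, and 24 and 29. The share of all genes is not given there. Nothing is read from these tissue counts about the 100 genes. Seasons have no pairing, since a number marks different fish in them. Except where stated, the cause of these moves was not tested. Depth limits muscle summer 4 most.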
